A study of Mus musculus with 10 samples.

Results

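Lipid-associated macrophage genes were followed in the lungs of mice exposed to cigarette smoke or to room air. The 10 genes are Gpnmb, Trem2, Tyrobp, Spp1, Lgals3, Apoe, Lpl, Fabp5, Cd9 and Cd63. They were taken as a named list, chosen with earlier results of these data known. Every probe of the array whose gene name, or whose transcript accession, led to one of the 10 symbols was kept. That gave 15 probes for the 10 genes, out of 41174 probes for 27670 genes on the array. Gpnmb, Trem2 and Lpl had more than 1 probe each, Cd9 had 3, and each gene is represented by its brightest probe in the lung channel, with the other 5 probes given beside it.

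The animals were female BALB/c mice, 6 to 8 weeks old on delivery, and the tissue was whole lung. The smoke-exposed mice breathed the smoke of 12 cigarettes for 50 minutes, 2 times a day on 5 days a week, over 8 weeks. The control mice were kept in room air over the same period. Each group had 5 arrays, each sample filled 1 array, and the 10 arrays lay on 5 slides that each carried 1 smoke-exposed and 1 room air-exposed sample. Smoke-exposed samples always took the first place of the slide and room air-exposed samples the second, so place on the slide and exposure cannot be told apart. From 64.893% to 77.494% of the spots of an array were well above background in red; precision is limited by there being 5 arrays in each group.

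Lipid-associated macrophages are tissue macrophages that take up and break down lipid-rich debris. Trem2, a receptor for lipids and lipoproteins, signals through its adaptor Tyrobp and is needed for much of their gene program, in which lipid-handling, lysosomal and secreted genes rise together. In the lung, alveolar macrophages clear surfactant lipid, and lipid-laden macrophages are a well-known sight in the airspaces of smokers.

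Of the 10 members, 7 were higher in smoke-exposed lungs at an adjusted p under 0.05 in limma, 0 were lower and 3 did not pass. Over all genes taken by their brightest probe, 4.95% were called higher, 3.27% lower and 8.22% in either direction. Since the list was chosen with earlier results known, its counts beside such shares are a description and no test. The members that passed were Gpnmb, Trem2, Spp1, Lgals3, Tyrobp, Lpl and Cd9. Apoe, Cd63 and Fabp5 did not pass. The 5 room air-exposed and 5 smoke-exposed arrays did not overlap for the same 7 members, all higher in smoke, against 4.62% of all genes higher in smoke and 7.89% in either direction. With the slide as a block, 8 members were called, Cd63 in addition, against 13.8% of all genes. Of the 15 member probes 9 were called, all higher, against 4.35% of all probes called higher and 7.06% in either direction. Over all probes, 2906 were called, 1793 higher (61.7%) and 1113 lower, and 5019 with the block. With median centring in place of loess, the split was 687 higher (47.9%) and 747 lower. The median log2 difference of the members was 0.96, and that of all genes was 0.00. Whole lung was measured, so more macrophages, more RNA per macrophage and RNA from other cells cannot be told apart.

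Each value is the log2 of the red over the green signal of a probe after normalization, smoke-exposed against room air-exposed. The files hold 2 channels, although the labels describe a green-only protocol. The lung epithelial genes Sftpc, Scgb1a1 and Ager stood 6.39, 6.72 and 4.83 log2 units higher in red than in green. The Y chromosome genes Ddx3y, Eif2s3y and Kdm5d were well above background in green on 10 of 10 arrays and in red on 2, 0 and 1, while a further one, Uty, was so on 0 arrays in either channel. Red was therefore read as the lung of these female mice and green as a reference RNA that holds male material. The 8 markers shared by macrophages were well above background in red on 10 of 10 arrays. Lyz2 stood 6.05 log2 units higher in red and Cd68 stood at -0.33, while Mrc1 was well above background in green on only 2 of 10 arrays. Several macrophage markers were thus near as bright in the reference as in the lung. All directions rest on the scanner file deposited for each sample. The authors' value table, which is the mean log2 signal of both channels, holds under each sample the array of the other group with the same number, for 282045 of 282045 values within 1e-04, so its columns as labelled give the opposite directions. Which of these assignments is right is not settled by the files. The study's paper lists Spp1, Trem2, Clec5a, Atp6v0d2 and Acp5 as raised by smoke in mice, the direction that the scanner files give.

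Trem2, the lipid-sensing receptor of the list, was among the genes with the clearest separation. Its log2 ratios in room air-exposed lungs were -1.90, -1.74, -2.04, -1.56 and -1.77, and in smoke-exposed lungs 1.20, 1.38, 1.17, 1.14 and 1.23. The groups did not overlap and stood 2.71 log2 units apart at their nearest arrays. The difference was 3.03 ± 0.08 (SE, n = 5 per group), 8.15-fold, with an adjusted p of 3.45e-09. A further Trem2 probe gave 2.45 ± 0.06, 5.45-fold, with arrays from -1.52 to -1.34 in room air and from 0.78 to 1.06 in smoke. Both probes were well above background in both channels on all 10 arrays. They placed the change in the same direction, with a smaller size at the dimmer probe.

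Tyrobp carries the activation motif through which Trem2 signals. Its room air values were 2.01, 1.59, 1.64, 1.79 and 1.94, and its smoke values 2.70, 2.78, 2.77, 2.70 and 2.85. The smoke-exposed arrays lay within a narrow band above all room air-exposed arrays. The difference was 0.96 ± 0.08 (SE), 1.95-fold, with an adjusted p of 4.2e-05. This difference is far smaller than that of its receptor Trem2 on the same scale. The probe that measured it is shown because it lies over that motif, with the stretch that codes for the start of the motif in capitals. The probe spans more than 1 exon on chromosome 7 (chr7:27358831-27360558, plus strand, build mm7).
Tyrobp probe: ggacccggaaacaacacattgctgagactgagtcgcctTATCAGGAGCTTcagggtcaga

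Gpnmb is a membrane glycoprotein of phagocytes and pigment cells that rises when lysosomes are loaded. Its room air values were -3.44, -3.43, -3.71, -3.23 and -3.51, and its smoke values -0.28, -0.21, -0.05, -0.13 and 0.03. Between the groups lay 2.95 log2 units with no array, the widest gap of the 10 members. The difference was 3.33 ± 0.09 (SE), 10.1-fold, with an adjusted p of 2.75e-09. The other Gpnmb probe was dim: red was well above background on 0 of 5 room air-exposed arrays and 5 of 5 smoke-exposed arrays. It was at least 1.28-fold higher in smoke, the mean red signal in smoke set against the lowest signal well above background on each room air-exposed array, or the probe's own where that was higher, with an adjusted p of 0.0667 that did not pass. With the slide as a block its adjusted p was 0.0409, without room air replicate 5 it was 0.0259, and over its 20 alternatives it ran from 1.2e-05 to 0.16. Its difference was 0.39, against 0.99 with a normexp offset of 10, 3.51 with the scanner's log ratio and 3.46 with red alone at its 75th percentile. With the mean of both probes in place of the brightest, the Gpnmb difference was 1.86 and was still called, but this size rests in part on the dim probe and is not exact.

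Cd9 and Cd63 are tetraspanins, membrane proteins of endosomes and secreted vesicles. Cd9 had room air values of 1.58, 1.59, 1.72, 1.55 and 1.79 and smoke values of 2.01, 2.00, 2.19, 2.05 and 2.19. The groups did not overlap, by 0.21 log2 units. The difference was 0.44 ± 0.06 (SE), 1.36-fold, with an adjusted p of 0.00143. This call was lost with median centring in place of loess (0.38, adjusted p = 0.212), with red alone at its 75th percentile (0.44, adjusted p = 0.0554) and with the mean of all probes (0.15, adjusted p = 0.0518). Over 21 alternatives other than the Wilcoxon test and the authors' table its adjusted p ran from 0.000544 to 0.212. The other Cd9 probes were designed on cDNA clones, and they gave 0.01 and -0.01, with adjusted p of 0.981 and 0.963. Their signs turned with median centring, to -0.10 and 0.02, and the latter probe was not well above background in red on any array.

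Cd63 had room air values of -0.50, -1.21, -0.63, -0.88 and -0.89 and smoke values of -0.39, -0.91, -0.27, -0.22 and -0.36. The groups overlapped through smoke replicate 2, which lay low, and all other smoke-exposed arrays were above all room air-exposed arrays. The difference was 0.39 ± 0.15 (SE), 1.31-fold, with an adjusted p of 0.175. Smoke exceeded room air on 5 of 5 slides, by 0.12, 0.30, 0.36, 0.66 and 0.53. With the slide as a block the adjusted p was 0.0142, and without smoke replicate 2 the difference was 0.51 with an adjusted p of 0.0375; over the 21 alternatives it ran from 0.0142 to 0.588. The call for Cd63 thus depended on whether the slide was taken into account and on 1 array.

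**Figure D1:**
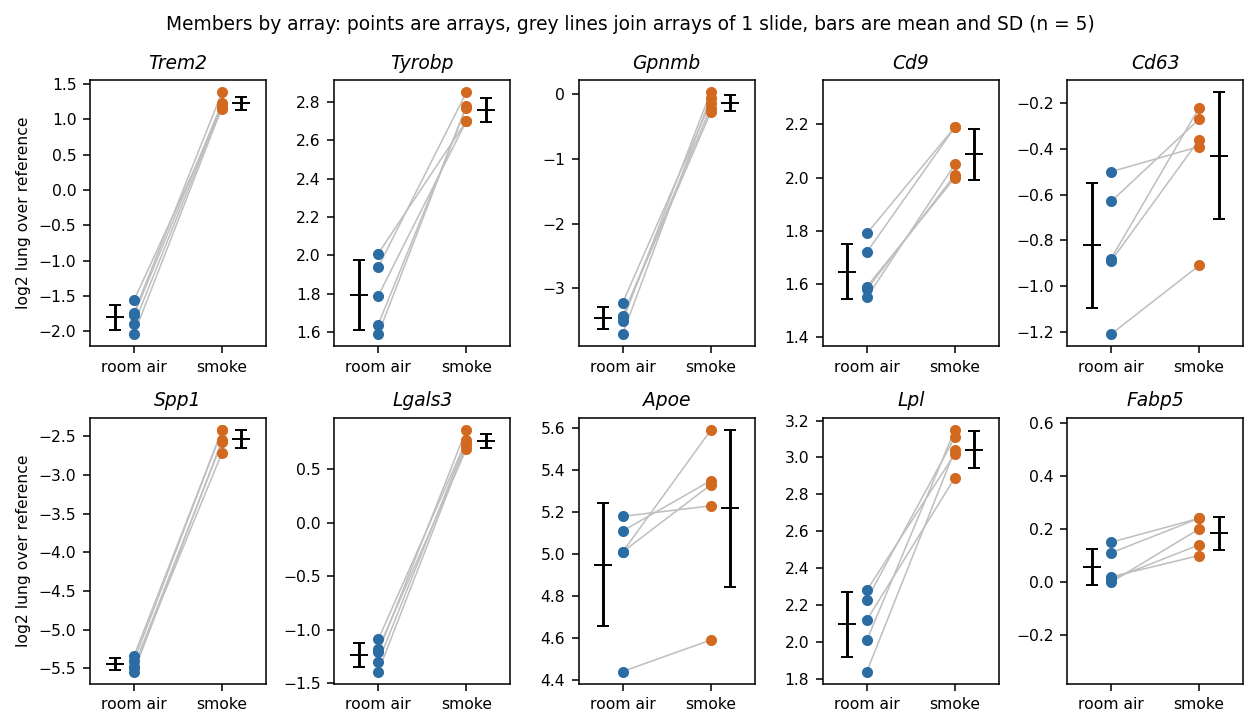
Log2 ratio of lung over reference for the brightest probe of each member, 1 panel per gene with its own axis; points are arrays, grey lines join the arrays of 1 slide, and bars are the mean and SD of 5 arrays. The groups are apart for Trem2, Tyrobp, Gpnmb, Cd9, Spp1, Lgals3 and Lpl, and overlap for Cd63, Apoe and Fabp5.

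Spp1, Lgals3 and Apoe are members whose proteins are secreted. Spp1 encodes osteopontin, a phosphoprotein of bone matrix and of activated macrophages. Its room air values were -5.48, -5.34, -5.54, -5.48 and -5.40, and its smoke values -2.57, -2.42, -2.55, -2.71 and -2.42, each the mean of 10 spots. All smoke-exposed arrays were at least 2.63 log2 units above all room air-exposed arrays. The difference was 2.91 ± 0.07 (SE), 7.54-fold, with an adjusted p of 1.13e-09, the lowest of the 10 members. The ratio stayed below 0 in both groups because the reference was bright for Spp1.

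Lgals3 encodes galectin-3, a sugar-binding protein that macrophages secrete and that gathers at damaged lysosomes. Its room air values were -1.18, -1.30, -1.39, -1.21 and -1.09, and its smoke values 0.69, 0.76, 0.73, 0.87 and 0.77. The signs of the ratio differed between the groups, so lung exceeded reference on all 5 smoke-exposed arrays and on no room air-exposed array. The difference was 2.00 ± 0.06 (SE), 4.00-fold, with an adjusted p of 8.9e-09.

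Apoe, the apolipoprotein with which macrophages export cholesterol, had room air values of 5.01, 5.01, 5.18, 4.44 and 5.11 and smoke values of 5.33, 5.59, 5.23, 4.59 and 5.35. Both arrays of slide 4 were the lowest of their group, and the groups overlapped. The difference was 0.27 ± 0.18 (SE), 1.21-fold, with a 95% interval from -0.13 to 0.67 and an adjusted p of 0.534. Smoke exceeded room air on 5 of 5 slides, and with the slide as a block the adjusted p was 0.0577.
The red channel alone gave another picture for Apoe. Its red log2 signals relative to the 75th percentile of the array were 6.45, 6.47, 6.51, 6.47 and 6.75 in room air and 7.31, 7.30, 7.19, 7.20 and 7.46 in smoke. These did not overlap, with a difference of 0.76 and an adjusted p of 0.00263. With normexp and quantile normalization of red alone the difference was 0.58, with an adjusted p of 0.000647. The green signal of Apoe was also higher beside smoke, by 0.42, with 1.51, 1.49, 1.36, 2.05 and 1.65 on room air-exposed arrays and 1.94, 1.68, 1.95, 2.56 and 2.05 on smoke-exposed arrays. Over the 21 alternatives the adjusted p of Apoe ran from 0.000647 to 0.803, and why green moved with red was not tested.

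The probes of Lgals3 and Apoe, which gave the values above, are shown with the dimmer of the Lpl probes described next, because each lies in coding sequence. The Lgals3 probe spans an exon junction (chr14:42712515-42713331, plus strand, mm7). The Apoe probe ends the coding sequence (chr7:17378757-17378816, minus strand, mm7), and the Lpl probe lies within 1 exon (chr8:67355909-67355968, plus strand, mm7).
Lgals3 probe: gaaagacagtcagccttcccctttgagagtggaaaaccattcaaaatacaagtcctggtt
Apoe probe: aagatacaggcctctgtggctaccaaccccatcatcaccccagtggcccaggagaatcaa
Lpl probe: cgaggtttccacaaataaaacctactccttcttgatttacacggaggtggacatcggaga

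Lpl and Fabp5 handle fatty acids. Lpl encodes lipoprotein lipase, which frees fatty acids from triglyceride-rich lipoproteins. Its room air values were 2.28, 2.12, 2.23, 2.01 and 1.84, and its smoke values 3.02, 2.89, 3.11, 3.15 and 3.04. The groups did not overlap. The difference was 0.95 ± 0.08 (SE), 1.93-fold, with an adjusted p of 6.26e-05. The coding probe shown above gave 0.72 ± 0.08, 1.65-fold, with an adjusted p of 0.0004, and its arrays ran from 1.24 to 1.65 in room air and from 2.12 to 2.35 in smoke.

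Fabp5, a carrier of fatty acids inside the cell, was the dimmest member. Red was well above background on 3 of 5 room air-exposed and 5 of 5 smoke-exposed arrays, and green on 0 of 10. Its room air values were 0.11, 0.02, 0.00, 0.15 and 0.01, and its smoke values 0.24, 0.10, 0.20, 0.24 and 0.14. The ranges met, and the difference of 0.13 ± 0.05 (SE) had an adjusted p of 0.195. Red alone at its 75th percentile gave 0.82 for Fabp5 and the scanner's log ratio gave 0.81, and neither passed. Its unadjusted p in limma was 0.028. The change of Fabp5 thus did not pass adjustment at this dim signal, which does not show that it is absent.

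**Figure D2:**
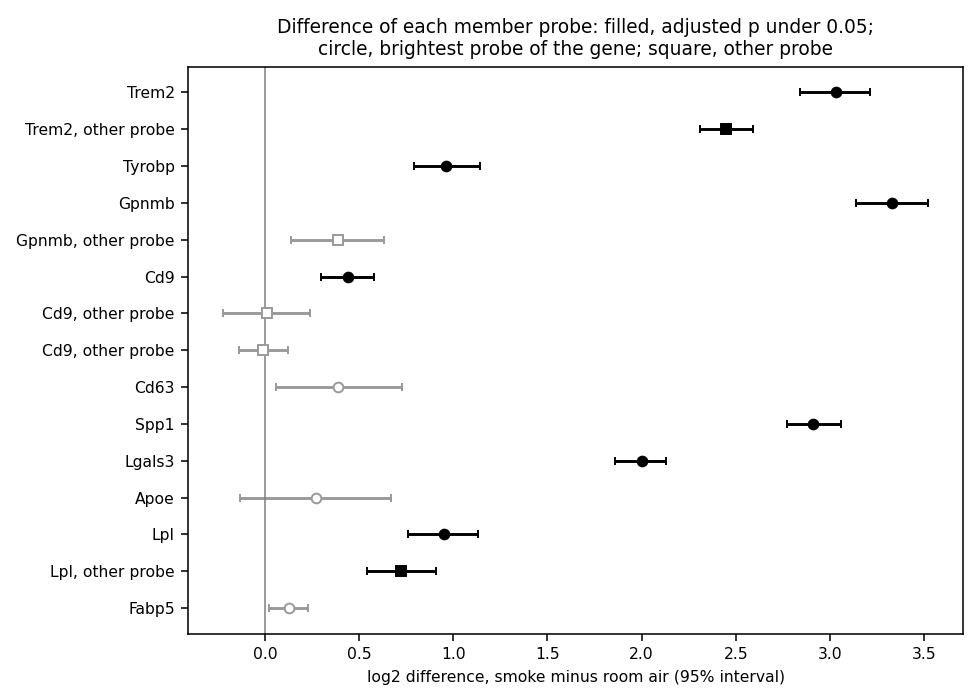
Log2 difference of smoke minus room air for all 15 member probes, with the 95% interval of the limma fit; filled symbols passed an adjusted p of 0.05, circles are the brightest probe of a gene and squares the others. The brightest probes of Gpnmb, Trem2, Spp1 and Lgals3 lie to the right, and the intervals of those of Tyrobp and Lpl lie on each other near 1.

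By the brightest probe of each gene, the members fell into steps of size. The 95% intervals of Gpnmb (3.14 to 3.52), Trem2 (2.84 to 3.21) and Spp1 (2.77 to 3.06) met from one neighbour to the next, so the order of neighbours is not beyond their error. Lgals3 (1.86 to 2.13) stood apart from them and from the next pair. These steps hold for the brightest probes: the other Trem2 probe (2.31 to 2.59) lay between the steps. The other, dim Gpnmb probe (0.14 to 0.63), whose size is not exact, lay far below the first step. The mean of both Gpnmb probes gave 1.86. Tyrobp (0.79 to 1.14) and Lpl (0.76 to 1.13) could not be ordered, and Cd9 (0.30 to 0.58) lay below both. By size of the difference among 27669 genes, Gpnmb ranked 3, Trem2 6, Spp1 8, Lgals3 30, Tyrobp 209, Lpl 219 and Cd9 953. Cd63 ranked 1132 and Apoe 1847. The rank of Fabp5 is not given, since its green signal was not well above background on any array.

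Within slides, all 10 members were higher in the smoke-exposed sample on 5 of 5 slides. The share of all genes for which this holds was not counted, so the count is a description. It includes Apoe, with a slide difference as low as 0.05, and Fabp5, whose green signal was not well above background on any array. The slide differences of Spp1 were 2.91, 2.93, 2.99, 2.77 and 2.98, and those of Cd9 were 0.43, 0.41, 0.47, 0.50 and 0.40. Those of Lpl were wider in proportion, at 0.74, 0.78, 0.88, 1.14 and 1.20. Spp1 and Cd9 differed in size but were both steady over slides, while Lpl was more variable. No array carried the pattern by itself: without any 1 of the 10 arrays, the 7 called members were called each time. Averaged over the 10 members after standardising each, the room air-exposed arrays scored -0.59, -1.01, -0.78, -0.90 and -0.80 and the smoke-exposed arrays 0.86, 0.64, 0.94, 0.75 and 0.90. The spread inside a group was small beside the distance between groups, and room air replicate 1 and smoke replicate 2 lay nearest to the other group.

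The channels were also read one by one. For the 7 called members the red signal differed by 3.66 (Gpnmb), 3.06 (Trem2), 2.96 (Spp1), 1.94 (Lgals3), 1.07 (Tyrobp), 0.97 (Lpl) and 0.44 (Cd9). The green differences of the same probes were 0.06, -0.06, -0.21, -0.20, 0.10, 0.00 and -0.05, in the same order. The green arrays of the groups overlapped for all of these but Lgals3, whose green signal was lower beside smoke on every array. The difference in red was far larger than that in green for each of the 7. Among the brightest probes of the members, that of Apoe, described above, had the largest green difference.

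**Figure D3:**
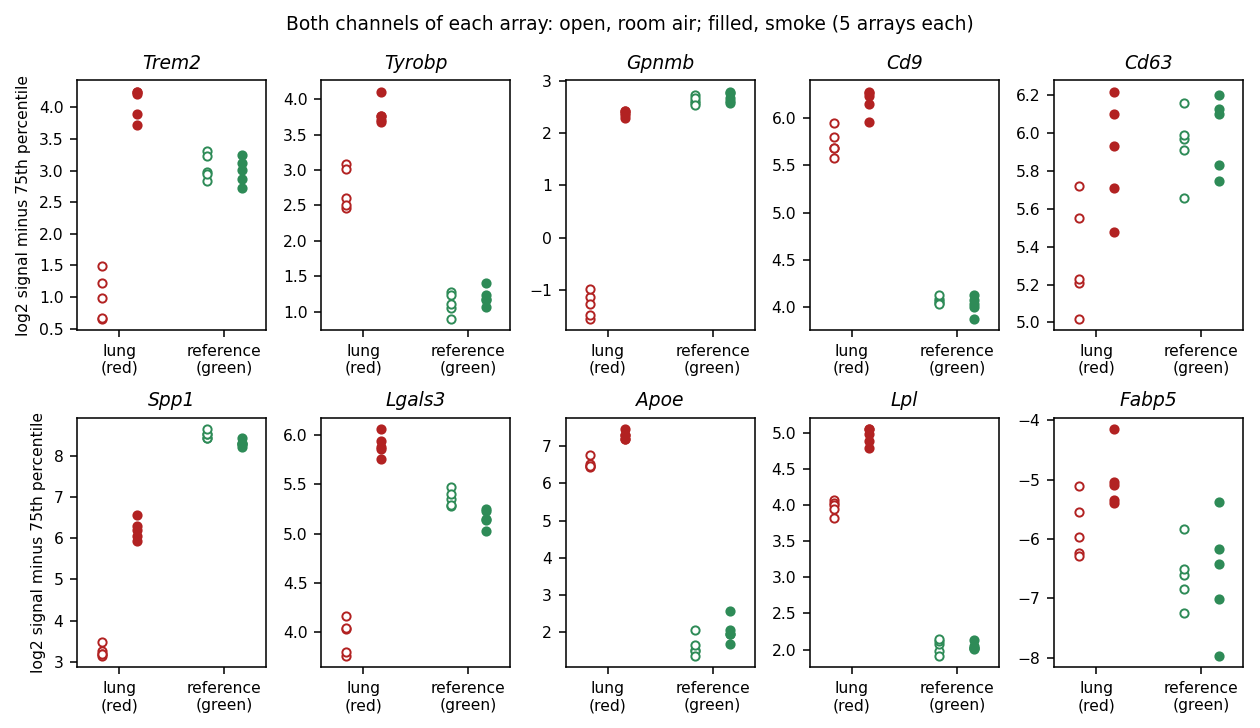
Red (lung) and green (reference) log2 signal relative to the 75th percentile of the array, for the brightest probe of each member; open points are room air-exposed and filled points smoke-exposed arrays, 5 each. Red moves and green stays for Trem2 and Gpnmb, while for Apoe the red points are apart and the green points are shifted by 0.42.

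Promoter stretches of the most changed members are shown, since these members moved together. RefSeq's table (build GRCm38.p6) matched 7 of the 10 members, with 10 start sites; Tyrobp, Lpl and Fabp5 were not among them. Each stretch runs from 250 bases before the start to 30 after it. On both strands 3 motifs were searched: CACGTG, the E-box bound by Mitf and its relatives; TGACTCA, bound by AP-1; and GAGGAA, the core bound by the macrophage factor PU.1. Capitals mark the matches.
Gpnmb promoter (chr6:49036268-49036547, plus strand): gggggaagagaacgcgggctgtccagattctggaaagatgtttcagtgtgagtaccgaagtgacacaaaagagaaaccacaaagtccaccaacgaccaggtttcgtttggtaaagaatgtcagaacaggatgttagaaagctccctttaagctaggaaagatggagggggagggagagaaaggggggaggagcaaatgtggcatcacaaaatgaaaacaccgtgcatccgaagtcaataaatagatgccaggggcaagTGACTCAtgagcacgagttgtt
Trem2 promoter (chr17:48346151-48346430, plus strand): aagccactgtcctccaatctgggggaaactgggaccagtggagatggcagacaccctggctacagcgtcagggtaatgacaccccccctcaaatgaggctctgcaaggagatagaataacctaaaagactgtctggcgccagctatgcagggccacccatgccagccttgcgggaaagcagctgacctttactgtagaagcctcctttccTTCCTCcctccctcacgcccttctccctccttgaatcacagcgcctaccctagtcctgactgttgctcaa
Spp1 promoter (chr5:104434861-104435140, plus strand): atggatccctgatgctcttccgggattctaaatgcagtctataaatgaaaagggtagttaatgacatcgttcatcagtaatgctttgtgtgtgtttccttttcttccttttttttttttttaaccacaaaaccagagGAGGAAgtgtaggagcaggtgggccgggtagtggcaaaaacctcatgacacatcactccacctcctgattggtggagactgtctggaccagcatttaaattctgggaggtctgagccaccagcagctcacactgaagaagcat

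TGACTCA was found in the Gpnmb stretch, 9 bases after the start, and in no other member stretch, against 4.94% of 32851 promoters. GAGGAA was found in the Trem2 stretch on the minus strand, 40 bases before the start, and in the Spp1 stretch 113 bases before the start. It was in 5 of the 10 member stretches, which belong to 4 of the 7 genes, and in 26% of all promoters. CACGTG was in 0 of the 10 member stretches and in 6.79% of all promoters. A match of letters is a description and says nothing of binding.

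The members' partners were read next, by lists that hold other genes of the same pathways. Some genes sit in more than 1 list: Cd68, Itgax, Lgals1, Pparg, Fabp1, Fabp4 and Pmel. Genes named below beyond the rule for named genes were chosen after their values were seen: Hcst, Syk, Plin2, Cd36, Abca1, Cd44, Lrp1, Angptl4, Fabp12, Tspan4, Tspan11, Csf1r, Fcgr1, Mertk, Siglecf, Ear1, Car4, Fabp1, Krt79, Plet1, Mmp8, Ccr7, Pecam1 and Dcstamp.

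Of 14 genes that signal downstream of Trem2 and Tyrobp or shed Trem2 as proteases, 8 were higher and 0 lower, with a median difference of 0.50. With median centring 4 were called, and 5 with red alone at its 75th percentile. Blnk, an adaptor between Syk and phospholipase C, rose 2.60-fold (log2 ratios -2.89 ± 0.15 in room air and -1.51 ± 0.11 in smoke, SD, adjusted p = 2.54e-06). Lat2 and Ptpn6 rose 1.98-fold and 1.75-fold, with adjusted p of 0.000288 and 0.000221. The kinase Syk itself rose 1.61-fold (adjusted p = 0.0216), a call that held in 7 of the 10 fits that leave out an array. For Hcst, an adaptor related to Tyrobp, the call (1.44-fold) held in 6 of 10.

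Among the other receptors that signal through Tyrobp, 1 of 9 was called higher and 0 lower, and with the slide as a block 3 were higher and 1 lower. Without room air replicate 1, 4 of the 9 were called, and 2 with a normexp offset of 10. The median was 0.22. Clec5a, a myeloid lectin receptor, rose 4.54-fold, from -1.13 ± 0.71 to 1.06 ± 0.26 (SD), with an adjusted p of 0.00086. Room air replicate 1 lay above the others of its group for Clec5a, at 0.13. With the mean of all Clec5a probes the difference was 0.95, against 2.18 by the brightest. Whether Trem2 differs from these receptors in its change was not tested.

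Of 24 other genes of lipid-associated macrophages and of disease-associated microglia, 16 were higher, 1 was lower and 7 did not pass, with a median of 0.67. Cd68, a lysosomal glycoprotein, rose 4.16-fold from -1.28 ± 0.11 to 0.78 ± 0.08 (SD), with an adjusted p of 6.92e-09. Ctsd, a lysosomal protease, rose 3.38-fold with an adjusted p of 6.52e-07, and the inhibitory receptor Lilrb4a rose 3.16-fold with an adjusted p of 0.000836. Plin2, the coat protein of lipid droplets, rose 1.75-fold. Cd36, a scavenger receptor that endothelium also makes, was the gene that fell, to 0.704 of the room air level.

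Among sterol and lipid sensors, their efflux targets and the factors related to Mitf, 4 of 13 were higher and 0 lower, with a median of 0.13. The cholesterol exporter Abcg1 rose 1.80-fold with an adjusted p of 0.000335, and Abca1 rose 1.39-fold with an adjusted p of 0.00472. Pparg, a fatty acid receptor of alveolar macrophages, rose 1.72-fold, with 0.48 ± 0.04 in room air and 1.26 ± 0.05 in smoke (SD) and an adjusted p of 1.76e-06. Tfec, a relative of Mitf, rose 2.09-fold with an adjusted p of 0.00653.

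Relatives and partners of single members came next. Of 10 other apolipoproteins, limma called 0 at an adjusted p under 0.05, with and without the slide as a block, and the exact Wilcoxon test also called 0. At an unadjusted p under 0.05 there were 2 in limma, and without room air replicate 1 limma called 1. Their median was -0.02. Of 15 partners of Lpl and Apoe, 2 were higher and 1 lower, with a median of -0.01. The count fell to 0 without smoke replicate 2 or 3, and to 1 without room air replicate 2, 3 or 5 or smoke replicate 1 or 4. It was also 0 with red alone at its 75th percentile, and 1 with median centring, with the scanner's log ratio and with the mean of all probes. Angptl4, an inhibitor of Lpl, fell by 0.66 on the log2 scale, a call that held in 6 of the 10 fits that leave out an array. Lrp1, an Apoe receptor, rose 1.30-fold, a call that held in 4 of 10. Of 8 osteopontin receptors, 1 was higher and 0 lower, with a median of -0.11, and with the block 1 was higher and 2 lower. The one called was Cd44, 1.77-fold higher, a call that held in 2 of 10. No osteopontin receptor was called by limma without room air replicate 2, 3 or 5 or smoke replicate 2, 3 or 5.

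Within the protein families, direction differed from gene to gene. Of 9 other fatty acid binding proteins, 2 were higher and 1 lower, with a median of 0.01. Fabp12 rose 1.45-fold and Fabp7 rose 1.25-fold, the latter not called without room air replicate 3 (0.31) or smoke replicate 5 (0.29). The Fabp7 difference was 0.32, against 1.28 with the scanner's log ratio and 1.40 with red alone at its 75th percentile. Fabp3 fell by 0.62 on the log2 scale. Of 7 other galectins, 1 was higher and 1 lower, with a median of -0.13. Lgals1 rose 1.56-fold, though it was not called with median centring (0.61) or with scaling between arrays (0.51). Lgals2 fell by 0.34, not called with red alone at its 75th percentile (-0.46).

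Of 24 other tetraspanins, 4 were higher and 7 lower, with a median of -0.12. Of these 11 calls in all, the number fell to 5 with median centring or with scaling between arrays, and to 7 with red alone at its 75th percentile. Cd53, a leukocyte tetraspanin, rose 1.77-fold. Tspan33 rose 1.68-fold, not called with median centring (0.67), and Tspan4 and Tspan11 were the others that rose, by 0.75 and 0.43, the former called in 6 of the 10 fits that leave out an array. Tspan7 fell by 0.78 with an adjusted p of 3.26e-05, not called with scaling between arrays (-0.55). Of 5 relatives of Spp1 and Gpnmb, 1 was called, with a median of -0.05. That was Pmel, a pigment cell relative of Gpnmb, at 0.21 with an adjusted p of 0.0324. The Pmel call held in 1 of the 10 fits that leave out an array, the one without room air replicate 4, and was lost without background correction (0.19), with median centring (0.19), with the scanner's log ratio (0.51) and with red alone at its 75th percentile (0.51).

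**Figure D4:**
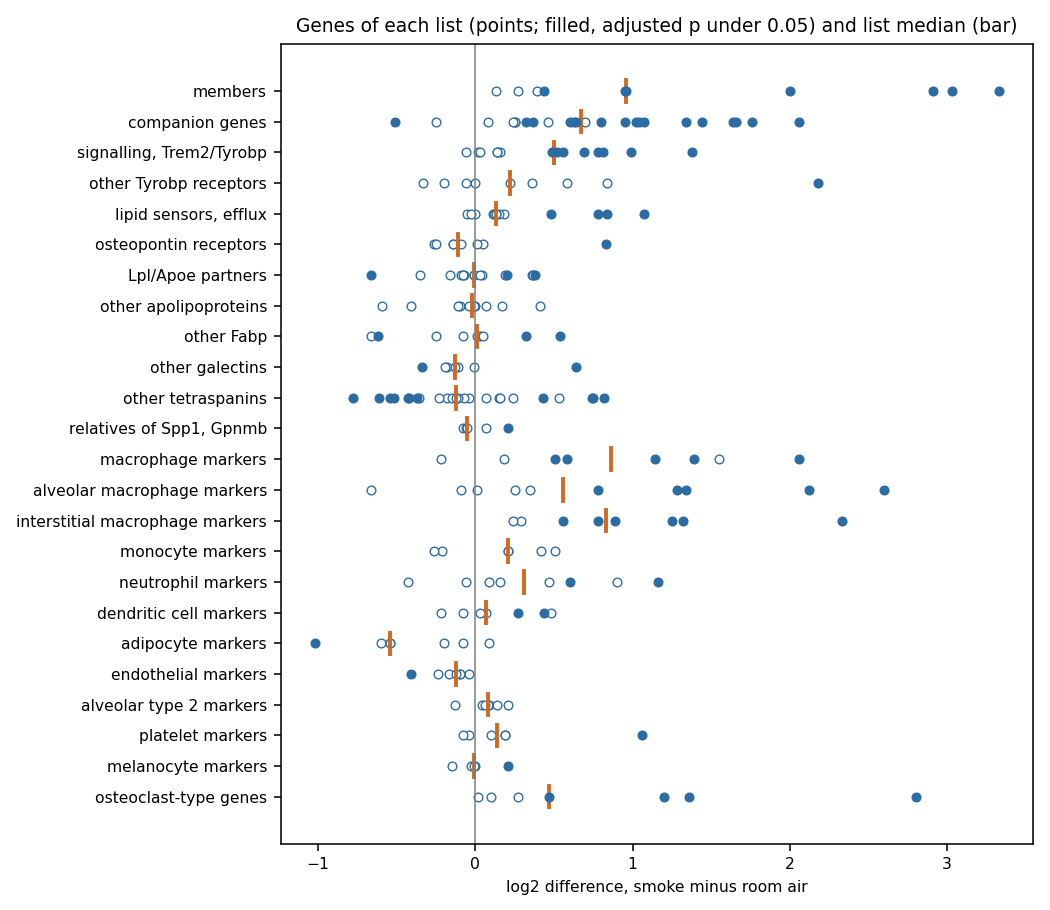
Log2 difference of smoke minus room air for every gene of each list on the array, by brightest probe; filled points passed an adjusted p of 0.05 and the orange bar is the list's median. The members reach 3.33, the osteoclast-type genes 2.80 and the alveolar macrophage markers 2.60, while alveolar type 2 markers lie between -0.13 and 0.21.

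Of 8 markers shared by macrophages, 5 were higher and 0 lower, with a median of 0.86: Cd68, Adgre1 (2.62-fold, adjusted p = 8.4e-07), Mrc1 (2.20-fold, adjusted p = 0.00115), Csf1r and Fcgr1. Mrc1 was not called with the scanner's log ratio (0.91), and Fcgr1 (1.43-fold) was called in 1 of the 10 fits that leave out an array. With median centring, with the scanner's log ratio and with red alone at its 75th percentile, 3 of the 8 were called. With the slide as a block 1 was also called lower, Mertk, at -0.22. Lyz2, the brightest of them, differed by 0.18 with an adjusted p of 0.705, and its sign turned with normexp and quantile normalization of red alone, to -0.04. Their summed red signal, of which Lyz2 is the largest term, was 18.35, 18.61, 18.29, 18.30 and 18.53 on the log2 scale in room air and 18.34, 18.85, 18.62, 18.15 and 18.66 in smoke. These sums overlapped.

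Of 10 alveolar macrophage markers, 5 were higher and 0 lower, with a median of 0.56. Marco, a scavenger receptor, rose 6.05-fold, from 3.24 ± 0.95 to 5.84 ± 0.50 (SD), with an adjusted p of 0.00248, and Chil3, the brightest of the list, rose 4.33-fold with an adjusted p of 0.000138. Itgax, the integrin CD11c, rose 2.53-fold with an adjusted p of 2.56e-07. Green was also higher beside smoke, by 1.51 for Marco and 0.93 for Itgax. In red alone, at its 75th percentile and by quantiles, the difference was 3.67 and 3.54 for Marco, against 2.60 in the ratio, and 2.12 and 2.04 for Itgax, against 1.34. The others called were Pparg and Plet1, the latter 2.42-fold and called in 2 of the 10 fits that leave out an array. The summed red signal of the list was 15.16, 15.21, 15.34, 15.15 and 15.29 in room air and 16.90, 16.92, 16.98, 16.75 and 16.96 in smoke. The sums did not overlap. The other 5 markers did not pass: Siglecf differed by 0.25, and Fabp1, at -0.66, was called lower with the slide as a block. Ear1 and Car4, at 0.01 and -0.09, turned sign under some scalings, and Krt79 differed by 0.35.

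Of 8 interstitial macrophage markers, 6 were higher and 0 lower, with a median of 0.83. With the scanner's log ratio 2 were called, and 3 with a normexp offset of 10. Ms4a7 rose 5.04-fold, from -0.50 ± 0.07 to 1.84 ± 0.07 (SD), with an adjusted p of 1.13e-09. C1qb rose 2.50-fold and was not called with the scanner's log ratio (1.16). Lyve1, the brightest of the list, differed by 0.29 and did not pass. The summed signal was 13.46, 13.53, 13.34, 13.06 and 13.15 in room air and 14.53, 14.54, 14.32, 14.32 and 14.46 in smoke. All markers of the macrophage lists that the array holds were well above background in red on some array. What part a change in the number of macrophages has in the members' values was not tested.

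Osteoclast-type genes, which other macrophages also use, were higher for 4 of 7 and lower for 0, with a median of 0.47. Ctsk, a collagen-cleaving protease and the brightest of the list, rose 6.95-fold, from 2.02 ± 0.32 to 4.81 ± 0.14 (SD), with an adjusted p of 6.64e-07. Atp6v0d2 and Acp5 rose 2.57-fold and 2.29-fold, with adjusted p of 0.000148 and 0.000526. Dcstamp, a membrane protein needed for cells to fuse, rose 1.38-fold. Green was also higher beside smoke, by 1.14 for Ctsk and 0.56 for Atp6v0d2. In red alone at its 75th percentile Ctsk differed by 3.66, and by 3.42 with red alone by quantiles, against 2.80 in the ratio. Atp6v0d2 differed by 2.38 in red alone at its 75th percentile, against 1.36. Their summed red signal was 11.07, 10.94, 11.10, 11.02 and 11.19 in room air and 12.74, 12.67, 12.91, 12.70 and 12.93 in smoke.

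Markers of other cells that can make members were read in the same way. Of 6 monocyte markers, limma called 0, and 1 higher and 1 lower with the slide as a block, and the exact Wilcoxon test called 0. At an unadjusted p under 0.05 there was 1 in limma, and without room air replicate 1 limma called 2. The median was 0.21. The brightest, Nr4a1, differed by -0.26, and it was the one called lower with the block (adjusted p = 0.0121, against 0.563 without it and up to 0.822 over its alternatives). Monocyte sums were 13.36, 12.48, 13.11, 12.76 and 13.12 in room air and 12.92, 12.53, 13.01, 12.71 and 13 in smoke.
Of 8 neutrophil markers 2 were higher and 0 lower, with a median of 0.31. Camp rose 1.51-fold (adjusted p = 0.00881), with a difference of 0.60 against 2.30 with the scanner's log ratio. It was not called with red alone at its 75th percentile (1.80), and Mmp8, at 2.24-fold, was called in 6 of the 10 fits that leave out an array. The brightest, S100a9, differed by 0.16 and did not pass. The summed neutrophil signal was 16.81 on room air replicate 1 and 14.54, 14.15, 14.31 and 14.73 on the other room air-exposed arrays, against 15.74, 15.35, 14.95, 15.14 and 15.21 in smoke. Room air replicate 1 thus stood above all other arrays for neutrophil transcripts. Without it, 4 neutrophil markers were called, and the number of called members was still 7. Without room air replicate 2, 3 or 5 or smoke replicate 1, 1 neutrophil marker was called, as with the scanner's log ratio and with red alone at its 75th percentile.

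Of 7 dendritic cell markers 2 were higher and 0 lower, with a median of 0.07, and 3 higher and 1 lower with the block. Only 1 was called without room air replicate 2, 3 or 4 or smoke replicate 1, 2, 3 or 5, and also without background correction, with a normexp offset of 10 and with red alone by quantiles. With median centring, the scanner's log ratio and red alone at its 75th percentile 0 were called. Flt3 rose 1.20-fold and was not called with median centring (0.29), with the scanner's log ratio (0.76) or with red alone in either form (0.86 and 0.32). Ccr7 rose 1.36-fold and was called in 3 of the 10 fits that leave out an array. The brightest, Batf3, differed by 0.48 with an adjusted p of 0.0661. It passed with the block (0.026) and without room air replicate 1 (difference 0.63), with adjusted p from 4.92e-05 to 0.252 over 21 alternatives. Dendritic cell sums were 10.92, 10.54, 10.67, 10.58 and 10.77 in room air and 11.07, 11.01, 10.90, 10.86 and 11.03 in smoke.

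Adipocytes are a source of Lpl, and endothelium is a source of some of its partners. Of 7 adipocyte markers 0 were higher and 1 was lower, with a median of -0.54. Cidec, a lipid droplet protein, fell by 1.02 with an adjusted p of 0.0105, not called with a normexp offset of 10 (-0.90), with scaling between arrays (-0.82) or with the scanner's log ratio (-0.36). The brightest, Cfd, differed by -0.20 and turned sign with scaling between arrays (0.10) and with the scanner's log ratio (0.18). Ucp1 was not well above background in red on any array. The sums were 13.83, 13.31, 13.41, 13.37 and 12.73 in room air and 12.60, 12.68, 12.49, 12.35 and 13.11 in smoke. Room air replicate 5 lay within the range of the smoke-exposed arrays. These are sums of red signal, and green was also lower beside smoke for Cidec and Cfd, at -0.90 and -0.69.

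Of 7 endothelial markers 1 was lower and 0 higher, with a median of -0.12, and 2 were lower with the block. With red alone, 3 were called at its 75th percentile and 5 by quantiles. None was called without background correction, with a normexp offset of 10, with median centring, with scaling between arrays, with the scanner's log ratio, with outlier spots kept or with the mean of all probes. Pecam1 fell by 0.41, a call lost without room air replicate 2, 3 or 5 or smoke replicate 1, 2, 4 or 5. The brightest, Cldn5, differed by -0.12, turning sign with scaling between arrays (0.17) and passing with red alone (-0.75 and -0.82). Endothelial sums were 16.55, 16.69, 16.85, 16.73 and 16.78 in room air and 16.15, 16.10, 16.25, 16.10 and 16.19 in smoke. The groups did not overlap, and smoke was lower. These are sums of red signal, not of ratios. For Cldn5 green also differed, by -0.68, against -0.75 in red at its 75th percentile. Why green moved with red was not tested.
Of 7 alveolar type 2 markers limma called 0, also with the block and at an unadjusted p under 0.05, and the exact Wilcoxon test called 0. With red alone at its 75th percentile 1 was called. The median was 0.08. The brightest, Sftpc, stood at -0.13 and turned sign with scaling between arrays (0.15) and with red alone at its 75th percentile (0.16). Its red signal was saturated on 1 of the 10 arrays, which bears on its differences and on the sum that it leads. The sums were 19.45, 19.71, 19.37, 19.56 and 19.60 in room air and 19.35, 19.87, 19.60, 19.40 and 19.76 in smoke, which overlap.

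Of 6 platelet markers 1 was higher and 0 lower, with a median of 0.14: Pf4, the brightest, rose 2.08-fold with an adjusted p of 0.0015. Platelet sums were 12.14, 11.75, 11.68, 11.85 and 11.70 in room air and 12.94, 12.57, 12.36, 12.74 and 12.58 in smoke. Of 5 melanocyte markers Pmel was the gene called, with a median of -0.01, and the brightest, Mlana, differed by -0.15. Tyr and Tyrp1, which define pigment cells, were not well above background in red on any array. Melanocyte sums were 9.97, 9.95, 9.75, 9.90 and 9.91 in room air and 9.74, 9.67, 9.93, 9.76 and 9.87 in smoke. What part any of these cells has in the members' values was not tested.

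The genes whose log2 ratio over the 10 arrays was most like the mean standardised ratio of the members were Trpv2, Mpeg1, Cd68, Hal and Rilpl2, out of 13848 named genes well above background in red on all arrays. The arrays fall into 2 groups, so this likeness carries mostly the difference between the groups. Hal, an enzyme of histidine breakdown, rose 6.96-fold, from 0.71 ± 0.22 to 3.51 ± 0.14 (SD), with an adjusted p of 5.94e-08. Its difference was 2.80 in the ratio and 3.66 in red alone at its 75th percentile, with green higher beside smoke by 0.65. Mpeg1, a pore-forming protein of macrophages, rose 1.96-fold, Trpv2, a calcium channel, 1.82-fold, and Rilpl2 1.69-fold.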

How the data were processed

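The deposited files are Agilent Feature Extraction scans with a red and a green intensity per spot (version 9.1 by the submitters' notes, 9.5.3.1 by the file headers). The authors' deposited value table holds log2 intensity, the mean over both channels of median signal minus background, and the scanner's own ratio is on a log10 scale. The median of its columns as labelled was 7.993, 7.827, 7.323, 7.995 and 7.808 for room air replicates 1 to 5 and 7.931, 8.027, 7.786, 7.634 and 7.844 for smoke replicates 1 to 5. By the scanner files its columns hold the arrays of the other group. The files do not settle which assignment is right, and the scanner files were used. The directions of the scanner files for Spp1 and Trem2 are those in the study's paper.

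Mean signals were corrected with normexp (offset 50, median background), normalized by loess within arrays, and averaged over the spots of a probe in limma 3.58.1 (R 4.3.3; Python 3.11.15 for summaries). Outlier spots were set missing, and dim probes were kept. The groups were compared with lmFit and eBayes, two-sided, with Benjamini-Hochberg adjustment over 41173 probes. Each gene took the values of the probe with the highest mean red signal. The alternatives tried were the slide as a block, the Wilcoxon test, other background corrections and normalizations, red alone, other filters, the mean of all probes, each array left out in turn and the authors' table.

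Replicates of the same number shared a slide. After the group means were removed, arrays of the same number correlated at 0.1569, 0.4609, 0.4603, 0.5498 and 0.4152. Those of other numbers correlated at a median of -0.1227 and at most 0.2052. The number was therefore used as the block in the alternative fit. The main fit, which gave the main calls, standard errors and intervals, had no block and so left this pairing out.

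The members and lists were chosen with earlier results of these data known. Named genes were all members, up to 3 genes per list with the largest absolute difference among those called, provided that the groups did not overlap and that red was detected on every array of the group with more signal, the brightest and the undetected markers of each marker list, and the 5 genes most like the members over the arrays. Dixon's ratio, with a limit of 0.71 for 5 arrays, marked arrays far from their group. Listed genes with no probe on the array were Klra4, Siglec15, Sirpb1b, Card9, Ear2, Ly6c2 and Ly6g. Some listed genes that count in the totals are not reported here by name.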

Additional observations from a re-analysis of the deposited data

Results flagged for a closer look

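For each probe described, Dixon's ratio of an array's gap to the range of its group of 5 was compared with 0.71, and 15 of 126 groups of arrays, over 63 probes, passed. Chance flags about 1 in 20 groups. The arrays with most of these were smoke replicate 4, with 4, and room air replicate 1 and smoke replicate 3, with 3 each.

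Among members, room air replicate 4 was far below its group for Apoe (ratio 0.762, log2 ratio 4.44). Smoke replicate 2 was low for Cd63 (0.758, at -0.91), and smoke replicate 3 for the Cd9 probe that was not well above background (0.763, at -0.03).

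Room air replicate 1 was high for Clec5a (0.842, at 0.13), Lilrb4a (0.787, at -0.08) and Batf3 (0.797, at 0.29). Room air replicate 2 was high for Tspan7 (0.79, at 5.39) and low for Tspan33 (0.792, at 0.61). Smoke replicate 2 was low for Tspan33 (0.778, at 1.40). Smoke replicate 3 was high for Mrc1 (0.835, at 5.15) and Flt3 (0.778, at 0.49). Smoke replicate 4 was high for Pmel (0.734, at 0.06) and low for Marco (0.821, at 4.97), Ctsk (0.745, at 4.56) and Hal (0.711, at 3.27). What sets these arrays apart was not tested.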

How the results depend on the processing

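Of 41173 probes, 2906 were called. With the slide as a block (replicate block) 5019 were called; among the probes named by rule, it changed the calls of Cd63, the dim Gpnmb probe, Nr4a1 and Batf3, and no other. Called probes numbered, with median centring 1434 and with red alone at its 75th percentile 1759, and the causes were not tested. The exact Wilcoxon test called 0, with 5446 at an unadjusted p under 0.05. Its smallest p with 5 against 5 arrays is 0.00794, which became 0.115 after adjustment. It called 0 members, with 7 at an unadjusted p under 0.05. Without 1 array, 2102 to 3660 probes and 7 to 8 members were called. Gpnmb, Trem2, Tyrobp, Spp1, Lgals3 and Lpl were called under all 21 alternatives other than the Wilcoxon test and the authors' table, Cd9 under 18, Apoe and Cd63 under 2 each and Fabp5 under 0.

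In the authors' table as labelled, whose columns hold the other group's arrays by the scanner files, 13 of 30099 probes and 3 members were called, all lower. That table holds the mean log2 signal of both channels, not red over green, so its sizes and calls are not comparable with those above. Its member differences were Gpnmb -1.82 (other probe -1.03), Trem2 -1.42 (other probe -1.37), Tyrobp -0.51, Spp1 -1.32, Lgals3 -0.80, Apoe -0.53, Lpl -0.43 (other probe -0.40), Fabp5 -0.58, Cd9 -0.17 and Cd63 -0.19. Those of pathway genes were Clec5a -1.15, Blnk -0.61, Lat2 -0.64, Ptpn6 -0.34, Cd68 -1.09, Ctsd -0.66, Lilrb4a -0.88, Tfec -0.52, Abcg1 -0.35, Pparg -0.42, Fabp3 0.46, Fabp7 -0.50, Lgals1 -0.32, Lgals2 0.30, Cd53 -0.37, Tspan7 0.47, Tspan33 -0.72 and Pmel -0.21. Those of markers were Adgre1 -0.62, Mrc1 -1.29, Lyz2 -0.08, Marco -2.58, Chil3 -0.93, Itgax -1.49, Ms4a7 -1.34, C1qb -1.26, Nr4a1 0.14, S100a9 -0.25, Batf3 -0.24, Cidec 0.91, Cfd 0.68, Cldn5 0.81, Pf4 -0.47, Ctsk -2.45, Atp6v0d2 -1.62 and Acp5 -0.71. Those of the genes most like the members were Trpv2 -0.50, Mpeg1 -0.73, Hal -2.11 and Rilpl2 -0.34.

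Other signs that turned belonged to differences that had not passed. The Cd9 probe A_51_P320626 gave -0.10 with median centring and -0.05 to 0.08 without 1 array. The Cd9 probe A_51_P323341 gave 0.02 with median centring, 0.28 with red alone at its 75th percentile, 0.01 with red alone by quantiles, and -0.04 to 0.03 without 1 array. Scaling between arrays gave Cfd 0.10, Cldn5 0.17 and Sftpc 0.15. The scanner's log ratio gave Cfd 0.18, red alone at its 75th percentile gave Sftpc 0.16, and red alone by quantiles gave Lyz2 -0.04. Without 1 array, S100a9 ran from -0.02 to 0.33 and Sftpc from -0.26 to 0.02. The causes were not tested.

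Over the arrays, red stood at a median of 1.6833 to 2.8228 times its background, which limits dim probes such as Fabp5.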
